A study of Mus musculus with 30 samples.

Results

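The table was searched for the semaphorins, a family of guidance ligands, and for their receptors and co-receptors. A gene was taken as a member when its name began with Sema and a number or with Plxna, Plxnb, Plxnc or Plxnd and a number, or when it was Nrp1, Nrp2, L1cam or Chl1. This gave 35 of the 16995 genes of the table. They were 7 secreted class 3 semaphorins, 6 class 4, 2 class 5 and 4 class 6 transmembrane semaphorins, the GPI-anchored Sema7a, both neuropilins, 4 class A and 3 class B plexins, Plxnc1, Plxnd1, the 2 adhesion molecules of the L1 family, and 2 transcripts, Plxna4os1 and Plxna4os2, that are annotated on the strand opposite to Plxna4. The rule used names alone and no measured value, all 35 were tested at every time point, and none had a value of 0 in any animal.

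The animals were adult female C57BL/6 mice, 2 to 3 months old. The right sensorimotor cortex of the stroke groups was lesioned by light after injection of the dye Rose Bengal (photothrombotic stroke), and the sham-operated group (Ctrl in the labels) had the operation without the light. Each sample was the intermediate laminae of 1 hemicord at cervical levels C5 and C6. In the stroke groups this was the side that lost its corticospinal input, taken at 4, 7, 14, 28 or 42 days post injury (dpi). The labels give no time for the sham animals. The values are normalized CPM (read counts scaled to library size) in 5 sham animals, 4 animals at 4 dpi and 5 animals at each later time point.

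Semaphorins are secreted or membrane-bound proteins that steer growing axons, in most settings by repelling them. Plexins are the receptors that carry the signal into the cell. Most class 3 semaphorins cannot bind a plexin alone and need a neuropilin beside it, whereas the transmembrane semaphorins bind plexins directly, and L1cam and Chl1 can join neuropilin complexes in the same membrane. In the developing corticospinal tract, Plxna4, Plxna2 and Sema6a are known for guiding axons at midline crossings, and Plxna1 is linked to the removal of direct contacts of corticospinal axons on motor neurons.

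A gene was called changed when its Benjamini-Hochberg adjusted p from limma, taken over all 16995 genes, was under 0.05, and it was a significantly differentially expressed gene (SDEG) when its fold change was also above 1.5. No member passed at 4, 7, 14 or 42 dpi against sham. The share of all genes that passed was 0.106%, 0.0294%, 0.00588% and 0.0235% at these time points. At an unadjusted p under 0.05 the numbers of members were 2, 3, 4 and 10 at these 4 time points, beside 5.14%, 5.84%, 11.6% and 14.8% of all genes. At 28 dpi, 10 members were higher than in sham, beside 11.9% of all genes, and Sema3f was lower, beside 13% of all genes. The 10 were the ligands Sema6a, Sema6c and Sema4d, the receptors Plxna1, Plxna2, Plxna4 and Plxnb1, the co-receptors Nrp2 and L1cam, and the transcript Plxna4os2. Sema6a and Plxna4os2 were the SDEGs, beside 4.15% of all genes.

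The median log2 fold change of the 35 members against sham was 0.14 at 28 dpi. It was 0.07 at 4 dpi and 0.02 at 7 dpi, then -0.07 at 14 dpi, and 0.08 at 42 dpi. Over all 16995 genes it was, from 4 to 42 dpi, 0.0057, -0.00037, -0.0085, -0.0048 and -0.0070. At 28 dpi, 29 of the 35 members had a fitted value above 0, beside 49.3% of all genes. At 14 dpi it was 8 of the 35, beside 47.8% of all genes. These directions hold for the values as the authors normalized them: once the values of every animal were scaled to 1 common total, the 28 dpi median over all genes became -0.71, that of the members became -0.60, and each of the 10 members that had risen except Plxna4os2 fell below 0.

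At the time points without a call, the 3 largest fitted rises and falls among the members did not pass the test. Their log2 fold changes reached -0.52 for Sema3b and 0.45 for Plxna4os2, both at 42 dpi. At 4 dpi the rises were those of Plxnb2 (32.6 CPM against 25.6 in sham), Plxna3 (16.6 against 14.1) and Sema6c (8.25 against 6.96), and the falls those of Sema3b (1.33 against 1.76), Sema3e (7.75 against 9.04) and Plxnb3 (43.7 against 51.3). At 7 dpi Sema5b (9.60 against 8.20), Sema6a (34.7 against 30.8) and Sema6c (7.84) were highest relative to sham, and Plxnb3 (41.7), Sema3e (7.84) and Sema4c (5.80 against 6.50) lowest. At 14 dpi they were Nrp1 (28.3 against 25.5), Sema6c (7.70) and Sema3g (5.06 against 4.72) on the high side and Sema5a (34.3 against 46.0), Plxna4os1 (0.50 against 0.74) and Sema3e (7.58) on the low side. At 42 dpi Plxna4os2 (2.78 against 1.88), Sema6a (38.6) and Plxnc1 (12.2 against 9.68) were highest, and Sema3b (0.98), Sema6b (29.1 against 36.0) and Sema3f (6.14 against 7.62) lowest. Sema6c was thus among the 3 highest at 4, 7 and 14 dpi and Sema3e among the 3 lowest, with no adjusted p under 0.05 in any of these comparisons.

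**Figure D1:**
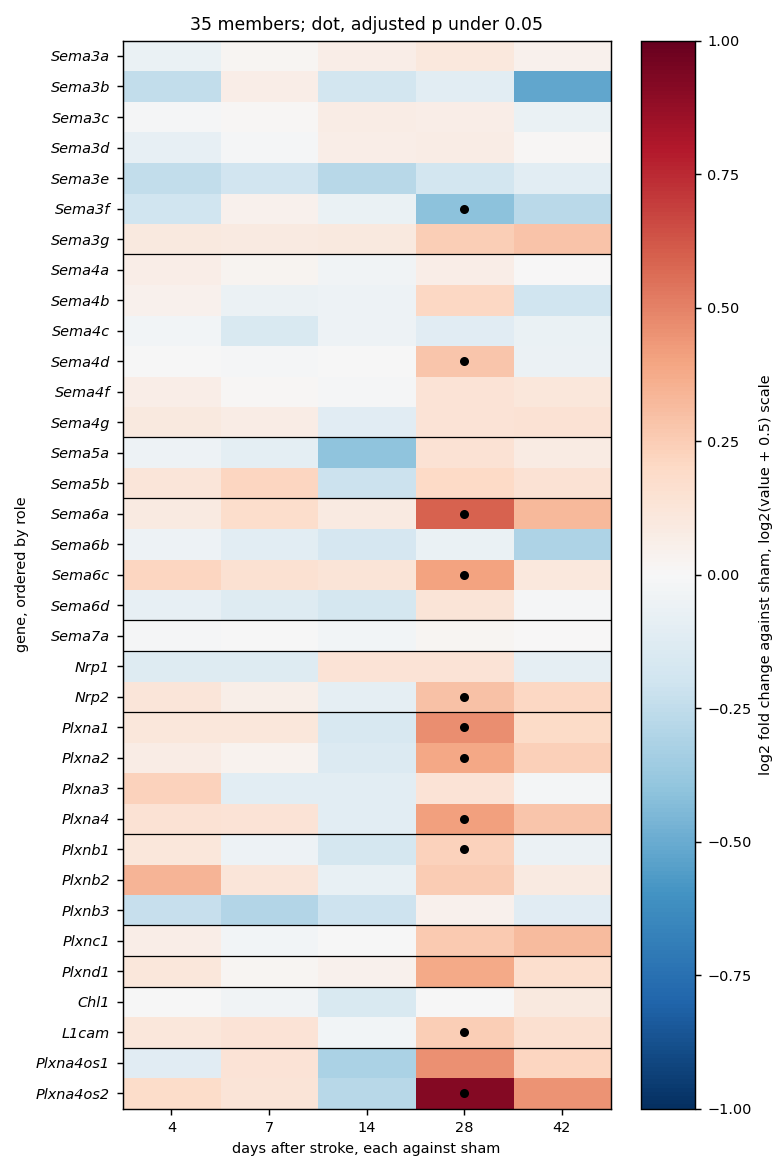
Colour gives the log2 fold change against sham, on the log2(value + 0.5) scale, of each of the 35 members (rows, grouped by role) at 4, 7, 14, 28 and 42 days after stroke (columns); a dot marks an adjusted p under 0.05. The 11 dots all lie at 28 days, 10 on red cells and 1, Sema3f, on a blue cell, and 9 of those 10 red cells turn negative when each animal is rescaled to the same sum.

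Of the 7 secreted class 3 semaphorins, 1 fell at 28 dpi and the other six were not called at any time point. Their 7 values added up to 91.7 ± 7.76 CPM in sham (SD, n = 5) and 93.8 ± 10.6 CPM at 28 dpi (SD, n = 5). Sema3a, the classical collapsing factor that acts through Nrp1 and class A plexins, measured 31.6, 30.4, 32.5, 34.8 and 25.8 CPM in the sham animals and 27.3, 42, 25.5, 41 and 34 CPM at 28 dpi. The 2 groups overlapped, and the log2 difference of 0.11 ± 0.130 (SE) had an adjusted p of 0.572. Sema3f, a ligand that works mainly through Nrp2, was the one member that fell. It measured 6, 7.5, 10.5, 7.1 and 7 CPM in sham, 8.2, 5.9, 6.4, 8.2 and 7.3 CPM at 14 dpi, 5.8, 5.1, 7, 4.9 and 5 CPM at 28 dpi and 5.4, 6.4, 6, 6.8 and 6.1 CPM at 42 dpi. At 28 dpi 4 of 5 animals lay below every sham animal, and the log2 fold change was -0.41 ± 0.125 (SE, adjusted p = 0.0183 with limma). The call for Sema3f was lost without the sham animal A12-1, which had the highest value (-0.30, adjusted p = 0.0889), and also without the 28 dpi animal A3-3 (-0.38, adjusted p = 0.0525) or A4-3 (-0.37, adjusted p = 0.05002). The other 5 class 3 members lay between -0.19 for Sema3e (7.92 CPM against 9.04 in sham) and 0.24 for Sema3g at 28 dpi. The low-valued Sema3b had the largest fitted fall of any member at 42 dpi, from 1.76 ± 1.09 CPM in sham to 0.98 ± 0.377 CPM (log2 -0.52, adjusted p = 0.338).

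Class 4 semaphorins are transmembrane ligands of B plexins and, in the immune system, of other receptors. Sema4d, the main ligand of Plxnb1, measured 32.3, 27, 21, 35.8 and 23.5 CPM in sham, 27.2, 28.9, 25.4, 26.6 and 28.7 CPM at 14 dpi and 30.8, 37.4, 32.3, 30.2 and 36.7 CPM at 28 dpi. The 28 dpi animals were all above the 14 dpi animals, but only 2 of the 5 exceeded the highest sham animal. The log2 fold change against sham was 0.28 ± 0.101 (SE, adjusted p = 0.0420 with limma), while the exact permutation test of these 5 against 5 animals gave p = 0.127. The call was lost without any of 5 animals, sham A11-4, A12-1 and A12-3 and 28 dpi A3-3 and A4-4, with adjusted p from 0.0680 to 0.183. Sema4b measured 13, 17.3, 14.7, 18.4 and 15.1 CPM at 28 dpi and 10.8, 11.5, 13.2, 11.9 and 10.8 CPM at 42 dpi. It was the one semaphorin called between these time points (log2 -0.41 ± 0.106, adjusted p = 0.0430), and 4 of 5 animals at 42 dpi lay below all those at 28 dpi. The remaining class 4 members, Sema4a, Sema4c, Sema4f and Sema4g, ranged from -0.12 to 0.14 on the log2 scale at 28 dpi.

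Class 5 semaphorins carry thrombospondin repeats beside the semaphorin domain. Sema5a measured 54.6, 47.7, 33.3, 50.7 and 43.5 CPM in sham, 37.5, 34.8, 28.7, 37.8 and 32.9 CPM at 14 dpi and 48.9, 53.9, 43.5, 47.9 and 57.8 CPM at 28 dpi. It was lowest at 14 dpi, with the largest fitted fall of any member at that time point (log2 -0.40 ± 0.129 against sham, unadjusted p = 0.00398, adjusted p = 0.381). All 5 animals at 28 dpi were above all 5 at 14 dpi, whereas sham and 28 dpi overlapped. Sema5b measured 7.4, 8, 5.3, 6.4 and 8.1 CPM at 14 dpi and 8.6, 9.9, 9.9, 10.1 and 8.9 CPM at 28 dpi, which again did not overlap. Against sham both class 5 members lay above 0 at 28 dpi, at 0.14 and 0.20, without passing the test.

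Class 6 semaphorins are transmembrane ligands of the class A plexins and can also act as receptors. Sema6a measured 31.7, 28.7, 27.5, 37.1 and 28.8 CPM in sham, 32.1, 28.8, 36.8 and 33.2 CPM at 4 dpi and 31.6, 36.5, 39.2, 35.1 and 31.1 CPM at 7 dpi. The later values were 31, 32.4, 32.5, 27.3 and 40.9 CPM at 14 dpi, 41, 59.9, 43.2, 41.1 and 49.1 CPM at 28 dpi and 42.2, 34.1, 41, 35.4 and 40.2 CPM at 42 dpi. All 5 animals at 28 dpi were above every sham animal and every 14 dpi animal, and the highest, 59.9 CPM, stood well above the other four. The log2 fold change at 28 dpi was 0.59 ± 0.104 (SE, adjusted p = 0.00139), the largest rise of any protein-coding member. At 42 dpi 3 of 5 animals were still above the sham range, with a log2 fold change of 0.33 that did not pass (adjusted p = 0.141). The fold of Sema6a lay close to the limit of 1.5: without the sham animals A11-4, A12-1 or A12-3, or the 28 dpi animals A3-3 or A4-4, the number of member SDEGs was 1 in place of 2, and the lowest log2 value of Sema6a with 1 animal left out was 0.50.

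Sema6c, a lower-valued member of the class, measured 6.8, 7.2, 7.3, 6.6 and 6.9 CPM in sham and 7.6, 8.7, 10.7, 9.1 and 11.1 CPM at 28 dpi. The sham values were tight and the 28 dpi values lay wholly above them (log2 0.40 ± 0.110, adjusted p = 0.0104). Sema6d measured 114.7, 98.5, 100.8, 110.5 and 108.8 CPM in sham, 93, 88.8, 92.1, 94.7 and 102.5 CPM at 14 dpi and 104.7, 120.5, 116.3, 117.5 and 124.2 CPM at 28 dpi. It was lower at 14 dpi in 4 of 5 animals and higher at 28 dpi in 4 of 5 animals than the whole sham range, but neither difference from sham passed over all genes (adjusted p = 0.381 and 0.0745). Sema6b, which was the one class 6 member below 0 at 28 dpi (-0.07), went on to 42 dpi with every animal below the sham range, from 35.96 ± 2.25 CPM in sham to 29.1 ± 3.16 CPM (log2 -0.31, unadjusted p = 0.00030, adjusted p = 0.0895). Sema7a, which hangs in the membrane by a lipid anchor and signals through integrins and Plxnc1, was called at no time point. It measured 75.7, 74.3, 78.9, 81 and 74.3 CPM in sham and 74.7, 73.3, 80.7, 76.8 and 84.1 CPM at 28 dpi, a log2 difference of 0.02 with a 95% interval from -0.10 to 0.14, and at the other time points its fitted values lay between -0.03 and 0.0024.

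Of the neuropilins, which hold class 3 ligands for the plexins, Nrp2 was called at 28 dpi and Nrp1 was not. Nrp2 measured 39.3, 43.1, 42.7, 43 and 41.1 CPM in sham, 51.8, 36.8, 49.3 and 45.6 CPM at 4 dpi and 43.2, 47.8, 43.4, 39.8 and 43.7 CPM at 7 dpi. The later values were 36.6, 40.2, 40.1, 37.2 and 42.8 CPM at 14 dpi, 45.6, 52.7, 49.4, 53.6 and 56.8 CPM at 28 dpi and 47.4, 47.7, 53.6, 42.8 and 50.8 CPM at 42 dpi. At 28 dpi no animal overlapped with sham (log2 0.30 ± 0.0760, adjusted p = 0.00703), and at 42 dpi 4 of 5 animals were above the sham range (0.21, adjusted p = 0.192). With a correction for length and G and C content the 28 dpi value of Nrp2 was 0.16 and the call was lost (adjusted p = 0.0940 with limma). Nrp1 measured 27.3, 22.8, 26.9, 28.3 and 22.2 CPM in sham and 22.8, 33.2, 26.2, 31.9 and 26.6 CPM at 28 dpi. These groups overlapped and the log2 difference was 0.13 ± 0.125 (adjusted p = 0.450), so its 95% interval from -0.12 to 0.39 includes the value of Nrp2. The difference between the 2 neuropilins was not tested.

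Both L1 family molecules are adhesion proteins of axons. L1cam measured 52.4, 57.2, 49.5, 53.2 and 53.1 CPM in sham, 52.9, 47.2, 50.2, 53.1 and 58 CPM at 14 dpi and 59.7, 63.5, 61.4, 62 and 69.5 CPM at 28 dpi. All 5 animals at 28 dpi were above every sham and every 14 dpi animal (log2 against sham 0.25 ± 0.0650, adjusted p = 0.00770). Chl1, the close homologue of L1cam that binds Nrp1, measured 70.1, 73.7, 57.3, 62.2 and 63.2 CPM in sham and 71.4, 57, 61.9, 62.1 and 73.8 CPM at 28 dpi. Its log2 difference was -0.0023 ± 0.0928, with a 95% interval from -0.19 to 0.19.

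Sequence before an annotated start is shown for Nrp2 and L1cam, which rose at 28 dpi, and for Nrp1 and Sema7a, which were not called. Of the 35 members, 28 had an entry in the RefSeq promoter table (GRCm38.p6), with 40 annotated starts. Each line gives the bases before a RefSeq start on the strand of the gene, up to 250 bases and ending where an annotated exon begins. For Nrp2 and Sema7a these bases end right before the listed gene start. The stretches of Nrp1 and L1cam lie inside the listed gene spans (chr8:128358604-128503363 and chrX:73853778-73896105), before an internal start. Capitals mark the GC box GGGCGG, the letters bound by factors of the Sp family, or its reverse complement CCGCCC.
Nrp2, chr1:62703067-62703284, plus strand: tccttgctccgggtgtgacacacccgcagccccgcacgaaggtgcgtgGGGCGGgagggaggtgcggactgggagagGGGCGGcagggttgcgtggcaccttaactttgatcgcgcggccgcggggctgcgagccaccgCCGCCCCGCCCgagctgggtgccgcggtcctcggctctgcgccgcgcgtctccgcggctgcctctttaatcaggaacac
Nrp1, chr8:128358823-128359072, plus strand: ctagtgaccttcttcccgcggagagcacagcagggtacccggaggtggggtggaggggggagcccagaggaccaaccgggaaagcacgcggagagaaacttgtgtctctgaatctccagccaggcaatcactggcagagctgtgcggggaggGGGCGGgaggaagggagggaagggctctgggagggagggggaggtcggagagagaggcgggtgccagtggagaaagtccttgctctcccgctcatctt
L1cam, chrX:73880835-73881084, minus strand: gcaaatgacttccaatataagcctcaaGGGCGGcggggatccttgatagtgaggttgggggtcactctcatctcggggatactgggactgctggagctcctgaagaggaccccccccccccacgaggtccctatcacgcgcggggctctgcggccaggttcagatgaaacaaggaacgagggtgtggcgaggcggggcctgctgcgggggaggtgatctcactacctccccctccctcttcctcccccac
Sema7a, chr9:57939862-57940111, plus strand: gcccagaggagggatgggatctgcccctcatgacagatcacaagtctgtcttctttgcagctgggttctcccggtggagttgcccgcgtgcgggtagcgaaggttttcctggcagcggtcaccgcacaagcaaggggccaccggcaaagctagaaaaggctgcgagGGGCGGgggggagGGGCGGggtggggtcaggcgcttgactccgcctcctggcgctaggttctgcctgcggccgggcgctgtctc
The stretch shown for Nrp2 held 4 GC boxes, 2 of them overlapping, that for Sema7a held 2, and those for Nrp1 and L1cam held 1 each. The G and C content was 72.5% for Nrp2, 64.4% for Nrp1, 63.2% for L1cam and 66.4% for Sema7a. Over the whole 250 bases before each start, a GC box on either strand was found at 29 of 40 starts of members (72.5%) and at 32.7% of all 32851 starts. The CCAAT box (CCAAT, either strand) was found at 8 of the 40 and at 33.8% of all starts, the TATA box (TATAAA, either strand) at 0 of the 40 and 12.4%, the E-box CACGTG at 2 of the 40 and 6.02%, and the CRE letters TGACGTCA at 0 of the 40 and 1.55%. None of these motifs contains another. Each of the 4 stretches shown holds a GC box and none holds a TATA box.

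Class A plexins are the receptors of class 3 semaphorins with neuropilins and of class 6 semaphorins directly. At 28 dpi 3 of 4 members were higher and none lower, beside 11.9% and 13% of all genes. After rescaling to the same sum all 3 turned negative, while the median over all genes was -0.71. Relative to that median, Plxna1 stood at 0.39, Plxna4 at 0.33 and Plxna2 at 0.32. The 4 genes added up to 267 ± 22.3 CPM in sham (235 to 298), 245 ± 19.7 CPM at 14 dpi (221 to 272), 355 ± 42.9 CPM at 28 dpi (302 to 414) and 314 ± 14.9 CPM at 42 dpi (301 to 339). The sums at 28 and 42 dpi did not overlap with those of sham.

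Plxna4 (chr6:32144268-32588192 in mm10), the class A plexin with the highest level per length, measured 126.3, 137.1, 111.2, 127.6 and 122.1 CPM in sham, 164.2, 123.2, 122.9 and 143.6 CPM at 4 dpi and 136.6, 127.6, 150.3, 132.3 and 138.1 CPM at 7 dpi. The later values were 117.7, 121.7, 111.5, 100.9 and 129.8 CPM at 14 dpi, 145.2, 165.1, 149.7, 179.7 and 191.5 CPM at 28 dpi and 151.9, 141.1, 158, 147.1 and 158.9 CPM at 42 dpi. Every animal at 28 dpi and at 42 dpi was above every sham animal, while the 14 dpi animals overlapped with sham. The log2 fold change was 0.41 ± 0.0809 at 28 dpi (adjusted p = 0.00172) and 0.28 ± 0.0809 at 42 dpi (unadjusted p = 0.00170, adjusted p = 0.125). A correction for length and G and C content lowered the 28 dpi value to 0.14 (adjusted p = 0.0403 with limma). One animal at 4 dpi, A9-2, was also high at 164.2 CPM.

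Plxna1 (chr6:89316314-89362620) measured 65.1, 74.9, 59.5, 70.8 and 65.1 CPM in sham, 81.6, 72.8, 55.4 and 83.5 CPM at 4 dpi and 73.8, 66.5, 77.1, 70.3 and 74.5 CPM at 7 dpi. The later values were 61.7, 62.2, 56.9, 54 and 64 CPM at 14 dpi, 73.6, 95.9, 89, 92.9 and 115.7 CPM at 28 dpi and 75, 79.3, 87, 66.5 and 75.4 CPM at 42 dpi. At 28 dpi 4 of 5 animals were above the sham range and the fifth, 73.6 CPM, lay just inside it. The log2 fold change was 0.46 ± 0.0987 (adjusted p = 0.00238). In the annotation 970 exonic bases of Plxna1, 10.7% of its exons, overlap with the antisense gene Gm26811, and the library kit does not mark the strand, so reads from this stretch cannot be told apart.

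Plxna2 (chr1:194618218-194816869) measured 61.7, 71.7, 52.3, 60.3 and 59.2 CPM in sham, 57.2, 50.8, 51.8, 51.9 and 65.1 CPM at 14 dpi, 68.2, 84.1, 73.1, 84.7 and 90.4 CPM at 28 dpi and 70, 70.8, 77.8, 73.2 and 66.8 CPM at 42 dpi. Again 4 of 5 animals at 28 dpi exceeded the highest sham animal, and the log2 fold change was 0.39 ± 0.0918 (adjusted p = 0.00431). With the correction for length and G and C content the value of Plxna2 was 0.15 and the call was lost (adjusted p = 0.0579 with limma). Plxna3, the lowest of the class per length, measured 15.2, 13.9, 12.4, 13.1 and 15.8 CPM in sham, 14.4, 13.3, 11.1, 13.7 and 12.8 CPM at 14 dpi and 15, 14.9, 16.1, 14.8 and 16.5 CPM at 28 dpi. Sham and 28 dpi overlapped for Plxna3 and its log2 difference was 0.13 ± 0.0958 (adjusted p = 0.306). At 4 dpi it had the second largest fitted rise of any member, 0.23 (unadjusted p = 0.0308, adjusted p = 0.860).

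**Figure D2:**
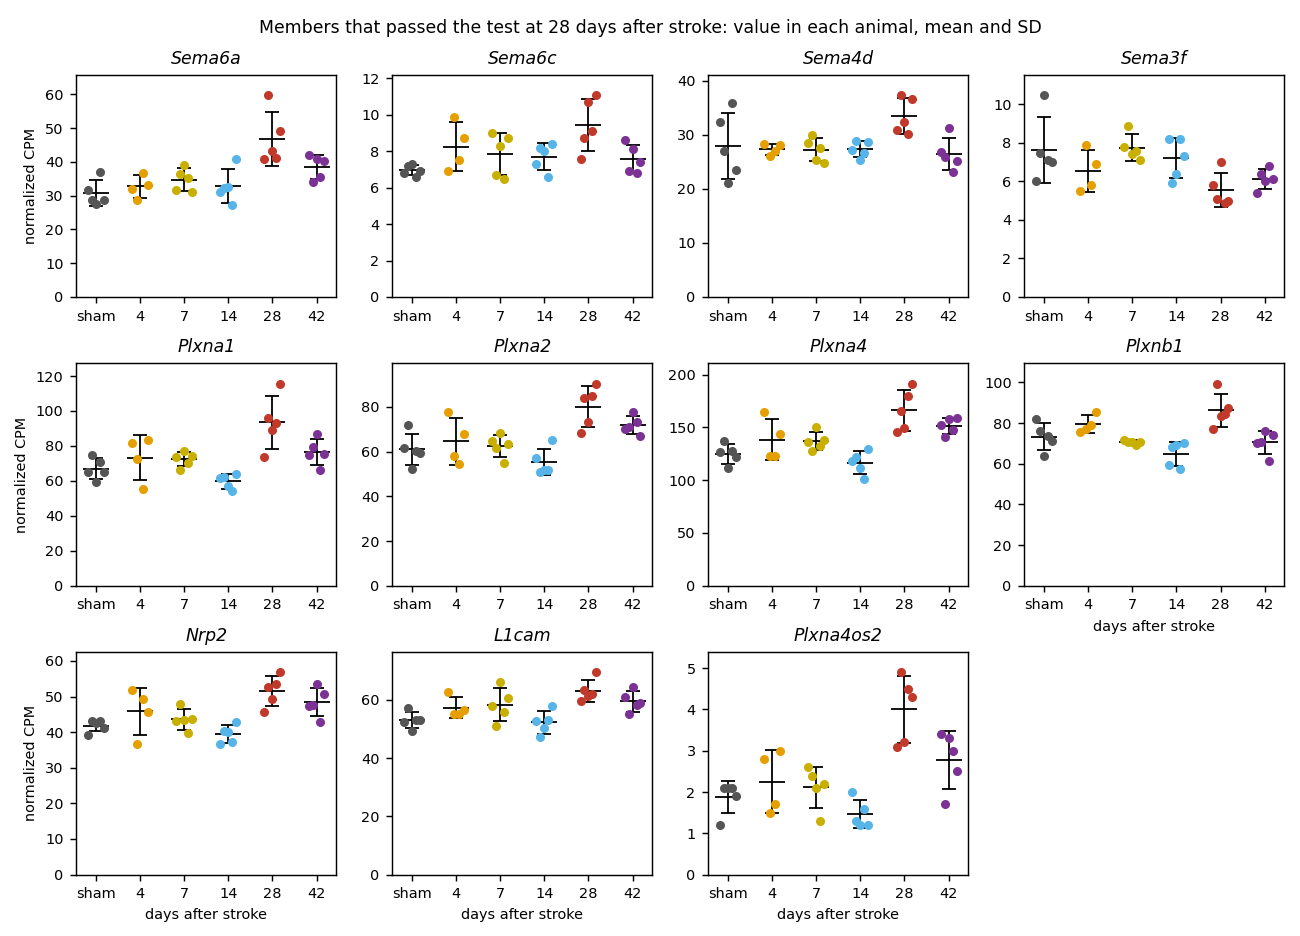
Each point is the normalized CPM value of 1 animal for the 11 members that passed the test at 28 days, by group (sham and 4, 7, 14, 28 and 42 days after stroke); the long bar is the mean and the whiskers are 1 SD, n = 4 at 4 days and 5 elsewhere. For Sema6a, Sema6c, Nrp2, L1cam, Plxna4 and Plxna4os2 all 5 points at 28 days lie above all 5 sham points, and for Sema3f 4 of 5 lie below them.

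Among the members, 6 had no overlap between sham and 28 dpi on the high side, beside 6.15% of all genes, and 0 had no overlap on the low side, beside 3.75% of all genes. The 6 were Sema6a, Sema6c, Nrp2, L1cam, Plxna4 and Plxna4os2, and each reached p = 0.00794 in the two-sided exact permutation test, the smallest p that 5 against 5 animals can give. With 4 animals at 4 dpi that limit was 0.0159.

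The class B plexins bind class 4 semaphorins and act on RhoA through exchange factors. Plxnb1 measured 81.8, 76.2, 63.8, 73.7 and 71.2 CPM in sham, 59.2, 68.3, 69, 57.2 and 70.1 CPM at 14 dpi, 77.2, 99.4, 83.3, 84.2 and 87.3 CPM at 28 dpi and 70.3, 70.7, 75.9, 61.5 and 73.9 CPM at 42 dpi. At 28 dpi 4 of 5 animals were above the sham range (log2 0.23 ± 0.0708, adjusted p = 0.0183), and the call was lost without sham A12-1 (0.18, adjusted p = 0.0785) or 28 dpi A3-3 (0.18, adjusted p = 0.0807). By 42 dpi all 5 animals had values below all those at 28 dpi (log2 -0.29, adjusted p = 0.0356). Plxnb2 measured 29.7, 27.8, 19.4, 24.1 and 27.2 CPM in sham, 31.2, 32.2, 27.6 and 39.2 CPM at 4 dpi and 27.7, 27.6, 33.7, 33.2 and 30.3 CPM at 28 dpi. It had the largest fitted rise of any member at 4 dpi, 0.34 ± 0.105, with 3 of 4 animals above the sham range (unadjusted p = 0.00268, adjusted p = 0.350), and at 28 dpi its 0.26 stayed outside the limit (adjusted p = 0.0551). Plxnb3, a plexin of the oligodendrocyte lineage, had its lowest mean at 7 dpi, 41.7 ± 5.65 CPM against 51.3 ± 8.59 CPM in sham (log2 -0.29, unadjusted p = 0.0134, adjusted p = 0.791).

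Plxnc1, the receptor of Sema7a, measured 11, 10.9, 8.5, 8.6 and 9.4 CPM in sham, 11.1, 10.6, 10.7, 13.6 and 12.4 CPM at 28 dpi and 11.3, 12.3, 14.2, 12.6 and 10.5 CPM at 42 dpi. Its fitted value was 0.26 at 28 dpi (adjusted p = 0.0633) and 0.32 at 42 dpi (adjusted p = 0.151), where 4 of 5 animals were above the sham range. Plxnd1, a receptor of Sema3e best known from blood vessels, measured 3.5, 3.2, 2.9, 4.3 and 3.5 CPM in sham and 4.3, 4.7, 5.6, 5.1 and 3.7 CPM at 28 dpi, a log2 difference of 0.38 ± 0.162 with 3 of 5 animals above the sham range (adjusted p = 0.0834). Its ligand Sema3e was below sham at all 5 time points in the fit, between -0.28 and -0.11, and passed at none.

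Both opposite-strand transcripts lie within the span of Plxna4 on chromosome 6, Plxna4os2 at chr6:32451170-32454750 and Plxna4os1 at chr6:32511073-32515576, and are noncoding. Plxna4os2 measured 1.2, 2.1, 2.1, 2.1 and 1.9 CPM in sham, 2.8, 1.5, 1.7 and 3 CPM at 4 dpi and 2.6, 2.4, 2.1, 1.3 and 2.2 CPM at 7 dpi. The later values were 2, 1.3, 1.2, 1.6 and 1.2 CPM at 14 dpi, 3.1, 4.9, 3.2, 4.5 and 4.3 CPM at 28 dpi and 3.4, 1.7, 3.3, 3 and 2.5 CPM at 42 dpi. At 28 dpi all 5 animals were above all sham animals, and the log2 fold change of 0.92 ± 0.189 was the largest of any member (adjusted p = 0.00203). Plxna4os1 measured 0.7, 0.7, 0.6, 1.2 and 0.5 CPM in sham, 0.6, 0.2, 0.5, 0.8 and 0.4 CPM at 14 dpi and 1.1, 1.4, 1.5, 0.7 and 1.3 CPM at 28 dpi, near the rounding step of 0.1 CPM. Because the libraries do not mark strand, reads from these transcripts and from unspliced Plxna4 RNA cannot be told apart.

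The step from 14 to 28 dpi compares 2 stroke groups with no sham animal in it. It called 17 members higher, beside 21% of all genes, and 1 lower, Sema3f, beside 21.9% of all genes. Plxna1, Plxna4os1 and Plxna4os2 were SDEGs, beside 7.56% of all genes. All 4 class A plexins rose in this step, with log2 differences of 0.63 for Plxna1, 0.53 for Plxna2, 0.51 for Plxna4 and 0.24 for Plxna3 (adjusted p from 3.58e-05 to 0.0440). After rescaling each animal to the same sum, ribosomal RNA included, Plxna4os2 was the 1 member still called in this step (0.87, adjusted p = 0.0359). Of all genes 0.488% were then higher and 3.79% lower. The other 17 calls were lost (adjusted p from 0.193 to 0.985), and Plxna3 turned to -0.018. After a correction for gene length and G and C content, 7 members were called higher and 1 lower, beside 14.4% and 25.9% of all genes. Sema4d, Sema5a, Sema5b, Sema6c, Sema6d, Nrp2, Plxna3, Plxna4, Plxnb2 and Plxnc1 lost their calls with it (adjusted p from 0.0567 to 0.909 with limma). In the values as deposited, the other receptors that rose were Nrp2 (0.38), L1cam (0.27), Plxnb1 (0.41), Plxnb2 (0.33) and Plxnc1 (0.27). The ligands that rose in these values were Sema4d (0.28), Sema5a (0.55), Sema5b (0.42), Sema6a (0.50), Sema6c (0.27) and Sema6d (0.31). The median over the 35 members was 0.26, and 0.016 over all genes. With 1 animal left out at a time, 6 of these 18 calls were lost at least once. Sema4d lost its call without 14 dpi A5-4 or 28 dpi A3-3 or A4-4 (adjusted p up to 0.0748), and Sema5b lost it without 14 dpi A5-4 (0.0735). Sema3f lost it without 14 dpi A5-1 or A6-2 or 28 dpi A3-3, A4-3 or A4-4 (up to 0.0747), and Plxnc1 without 14 dpi A5-3 or A5-4 or 28 dpi A4-3 or A4-4 (up to 0.121). Plxna3 lost it without 14 dpi A5-3, A5-4 or A6-3 or 28 dpi A3-3, A4-1, A4-3 or A4-4 (up to 0.144), and Sema6c without any of 14 of the 29 animals (from 0.0502 to 0.142). Without the 14 dpi animal A6-3 the SDEGs among the members numbered 5.

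The step from 28 to 42 dpi called 2 members lower, Sema4b and Plxnb1, beside 0.494% of all genes, and neither was an SDEG. Of 12 other settings, Sema4b lost its call in 6 (adjusted p up to 0.827) and Plxnb1 in 5 (up to 0.940). The median over the members was -0.13, and -0.0053 over all genes. Sema4b lost its call without 42 dpi A1-1, A1-2, A1-4 or A3-4, 28 dpi A3-3, A4-3 or A4-4, or sham A12-2, with adjusted p from 0.0505 to 0.141. Plxnb1 lost its call without 42 dpi A1-1, A1-2 or A1-4 or 28 dpi A3-3, A4-3 or A4-4, with adjusted p from 0.0710 to 0.141.

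18S ribosomal RNA, listed as Rn18s-rs5, reached higher levels in the stroke groups than in sham. It ranged from 30321 to 52929 CPM in sham, from 18295 to 114026 CPM at 4 dpi, from 36202 to 116302 CPM at 7 dpi, from 32754 to 817780 CPM at 14 dpi, from 44755 to 779160 CPM at 28 dpi and from 78737 to 457302 CPM at 42 dpi. The 28 dpi animal with the least, A4-1, lay within the sham range of Rn18s-rs5 at 44755 CPM. It measured 43.2 CPM for Sema6a, 89.0 for Plxna1, 149.7 for Plxna4 and 49.4 for Nrp2, each above every sham animal, and 32.3 CPM for Sema4d and 7.0 for Sema3f, both inside the sham range. The 14 dpi animal with the most, A6-3, measured 64.0 CPM for Plxna1 and 129.8 CPM for Plxna4, both inside the sham range, and 40.9 CPM for Sema6a, above it. With Rn18s-rs5 as a covariate, no gene of the table passed at 28 dpi. The fitted values were 0.49 for Sema6a, 0.41 for Plxna1, 0.34 for Plxna4, 0.36 for Plxna2 and 0.32 for Nrp2, with adjusted p from 0.0572 to 0.0830. Without the 5 libraries above 400000 CPM, 10 members passed at 28 dpi, all of them higher, beside 8.23% of all genes higher and 9.47% lower. Sema4d and Sema3f did not pass (adjusted p = 0.130 and 0.0629 with limma).

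**Figure D3:**
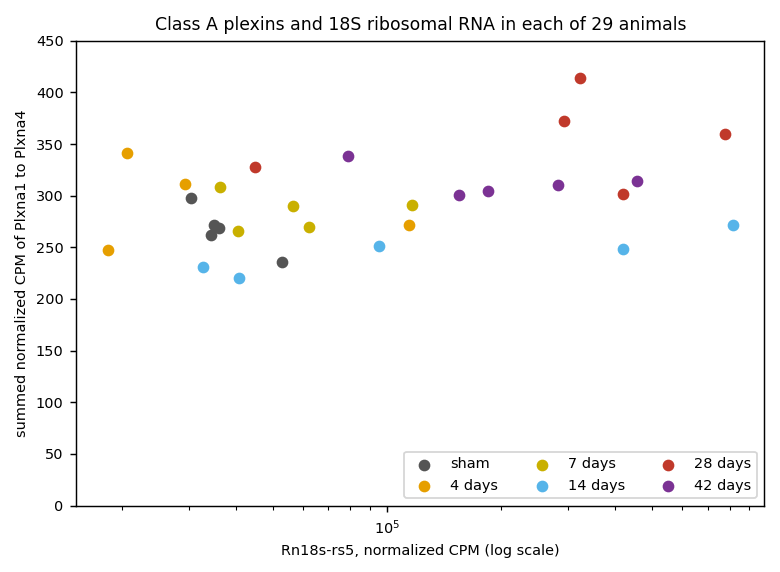
Each point is 1 of 29 animals; the horizontal axis is the normalized CPM of Rn18s-rs5 on a log scale and the vertical axis the summed normalized CPM of Plxna1, Plxna2, Plxna3 and Plxna4, coloured by group. The 28 day animals had Rn18s-rs5 of 417970.5, 779159.7, 44755.2, 291949.9 and 323192.5 CPM, with plexin sums of 302 to 414 CPM. The 14 day animals had 95113.7, 419049.7, 32753.5, 40690.7 and 817779.7 CPM, with sums of 221 to 272 CPM. The 2 ranges are alike, but most 28 day animals lie high in theirs and most 14 day animals low.

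Rescaling each animal to the same sum, ribosomal RNA included, moved the median log2 fold change at 28 dpi from -0.0048 to -0.71 over all genes and from 0.14 to -0.60 over the members. Relative to the rescaled median of all genes, the log2 fold change was 0.53 for Sema6a, 0.39 for Plxna1, 0.33 for Plxna4, 0.32 for Plxna2, 0.23 for Nrp2 and -0.40 for Sema3f. Their own values on that scale were -0.19, -0.32, -0.38, -0.39, -0.48 and -1.11.

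The members are long genes, with a median longest transcript of 5491 bases against 3233 over all genes, and a median G and C content of 55.0% against 49.1%. Each animal's values were then corrected for a smooth trend on length and G and C content. With this correction 7 members passed at 28 dpi, 6 higher and 1 lower, beside 8.9% and 18.4% of all genes. The log2 fold change of Plxna4 dropped from 0.41 to 0.14 (adjusted p = 0.0403), that of Plxna2 from 0.39 to 0.15 (0.0579), that of Plxnb1 from 0.23 to 0.07 (0.379) and that of Nrp2 from 0.30 to 0.16 (0.0940). Plxna1 went from 0.46 to 0.29 (0.00377), L1cam from 0.25 to 0.17 (0.0373) and Sema4d from 0.28 to 0.22 (0.0754), so that Sema4d, Plxna2, Plxnb1 and Nrp2 were no longer called. The corrected values of the other members were 0.45 for Sema6a (adjusted p = 0.00202), 0.33 for Sema6c (0.0119), 0.95 for Plxna4os2 (0.00104) and -0.42 for Sema3f (0.0109).

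**Figure D4:**
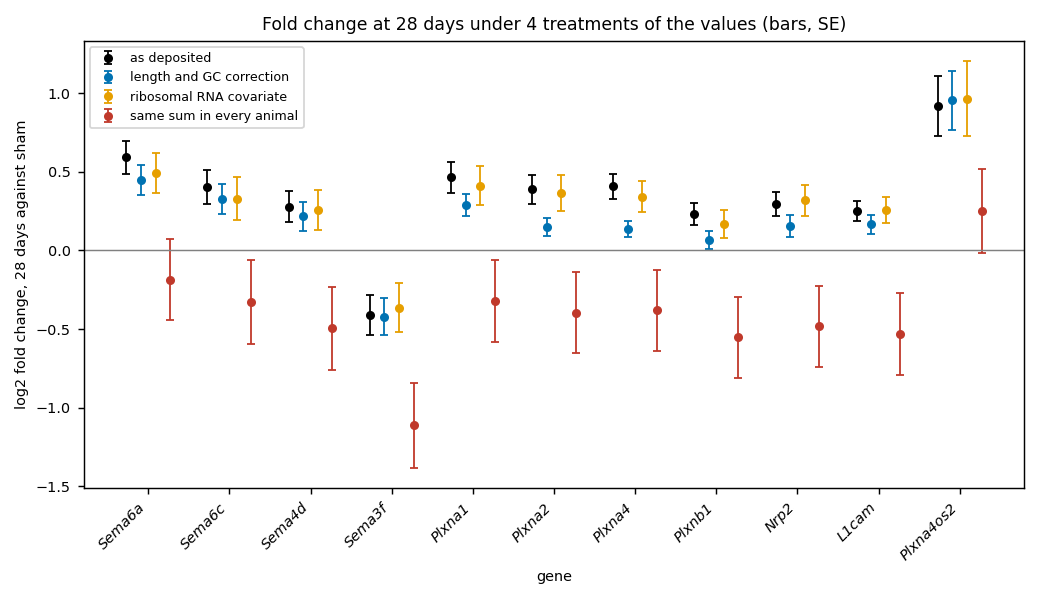
Points are log2 fold changes at 28 days against sham for the 11 members that passed the test, with bars of 1 SE, for the values as deposited, after a correction for length and G and C content, with Rn18s-rs5 as a covariate, and after rescaling each animal to the same sum. The first 3 treatments give values above 0 for all members but Sema3f, and the last gives values below 0 for all but Plxna4os2.

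Signalling downstream of plexins was followed in a list of 25 genes, all 25 of them measured. At 28 dpi 5 of the 25 were higher and 5 lower, beside 11.9% and 13% of all genes, and none was an SDEG. The list's median log2 fold change was 0.10, and -0.0048 over all genes. The higher ones were Dpysl5 (0.40), a member of the collapsin response mediator family, Farp1 (0.33), an exchange factor for Rac, Mical3 (0.31), an oxidoreductase of the Mical family, Gsk3b (0.29), a kinase that acts on collapsin response mediators, and Arhgef12 (0.17), an exchange factor for RhoA that binds class B plexins. The lower ones were Cfl1 (-0.36), the actin-severing cofilin, the kinases Cdk5 (-0.26), Pak1 (-0.21) and Fyn (-0.19), and the GTPase Rac1 (-0.25). Among partners at the cell surface, 12 of 13 listed genes were in the table, and Nfasc (0.42), Flt1 (0.36) and Cntn2 (0.22) were higher at 28 dpi, beside 11.9% of all genes, and none was lower. In these 2 lists no gene passed at 4, 7, 14 or 42 dpi. In the step from 14 to 28 dpi, 9 of the 25 signalling genes were higher and 9 lower, and 6 of the 12 surface partners were higher, beside 21% of all genes higher and 21.9% lower.

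In this bulk tissue fewer cells of a type and less RNA per cell cannot be told apart. The 3 listed Hox genes of the spinal level and all 6 neuronal markers were present in every group. The table holds only genes that passed the authors' expression filter, so their presence cannot test the tissue label. At 28 dpi the oligodendrocyte markers Cnp, Mobp and Mog were lower. One of 6 neuronal markers, Snap25, was lower, with list sums of 4646 to 4902 CPM against 4821 to 6241 CPM. Of the astrocyte markers Slc1a2 was higher and Aqp4 and Aldh1l1 were lower, and of the endothelial markers Flt1 and Cdh5 were higher, with sums of 79.6 to 136 CPM against 71.2 to 99.1 CPM. Cx3cr1, 1 of 6 microglial markers, and Col1a1, 1 of 5 of pericytes and meningeal fibroblasts, were higher, and none of the 5 motor neuron markers or the 2 of oligodendrocyte precursors was called. Markers of root Schwann cells and of the forebrain, 2 each, were not analysed here. In the step from 14 to 28 dpi the oligodendrocyte markers Cnp, Mobp, Mbp and Mog, the neuronal markers Nefl, Snap25 and Tubb3 and the microglial markers P2ry12 and Tmem119 were lower. Slc1a2, Flt1, Cdh5, Cspg4 of the precursors and Col1a2 of pericytes and meningeal fibroblasts were higher in that step. The neuronal sums were 5332 to 6788 CPM at 14 dpi and 4646 to 4902 CPM at 28 dpi. The part of these lists in the values of the members was not tested.

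Levels can be compared between genes only per length, here as mean CPM in sham for each kilobase of the longest annotated transcript. On this scale Sema7a had the highest level, 23.3 ± 0.907 (SD, n = 5), followed by Sema6d at 16.6 ± 1.06. L1cam at 10.4 ± 0.537, Plxna4 at 9.70 ± 0.730 and Sema6b at 9.63 ± 0.602 came next, and Plxna4 differed from both by less than its SD. Chl1 at 8.64 ± 0.866 and Plxnb1 at 8.48 ± 0.766 differed by less than their spread. The 2 neuropilins were at 7.00 ± 0.766 for Nrp1 and 6.22 ± 0.243 for Nrp2, and the other class A plexins at 7.43 ± 0.656 for Plxna1, 5.53 ± 0.631 for Plxna2 and 2.03 ± 0.204 for Plxna3. Secreted class 3 ligands ran from Sema3a at 5.23 ± 0.562, which differed from Plxna2 by less than their spread, to Sema3b at 0.513 ± 0.316. Sema3b and Plxnd1, at 0.504 ± 0.0755, were the lowest protein-coding members and differed by less than their spread. Members with a high level in sham included some that rose at 28 dpi, such as Plxna4 and L1cam, and some that were not called, such as Sema7a and Chl1.

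The family members share little sequence at the scale of reads. Of the words of 31 bases in their annotated transcripts, the share found in any other gene was at most 8.57%, in Plxna1, where Gm26811 shared the most, followed by 6.45% in Sema4c, where D430040D24Rik lies on the opposite strand, and it was 0% in 9 members, among them Plxna3, Sema6c and Sema7a.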

How the data were processed

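Normalized CPM values of 29 animals were taken from the deposited table. They were made by the authors from ribo-depleted total RNA sequenced as single reads on an Illumina HiSeq: reads were quantified against the mouse genome build mm10 with SALMON, summarised per gene with Tximport and normalized with edgeR (R 3.4.1 and edgeR 3.14.0 in the submitters' processing notes), and genes of low expression were removed. The deposited score values are rounded to 0.1, are no longer counts, and total between 714597 and 2256910 per animal. Depth is unknown without the raw counts, which were not used here, and precision is judged from replicate spread and the rounding step. The table also holds the authors' own fold changes and p values, which were not used. Groups came from the sample titles. The labels list 30 animals; 1 animal at 4 dpi had no column and was not analysed here. The titles give each animal an A number of unstated meaning; A3 occurs at both 28 and 42 dpi, every other number in 1 group, and nothing names litters.

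Values were analysed as log2(value + 0.5) in 1 linear model of 6 group means with limma 3.58.1 under R 4.3.3 (trend on the mean), with Benjamini-Hochberg adjustment over 16995 genes; low-valued genes therefore show smaller log2 changes than their ratios. SE and intervals come from this fit. Two-sided exact permutation tests compared single genes between 2 groups. A sum per kilobase and a trend on length and G and C content used GENCODE M21, in which all 35 members were found, 33 of them with the same start. The fit was tested on simulated data. Members, lists and markers were chosen with earlier results of these data known. Named with values in every animal were the 14 ligands and receptors of a fixed list and every member called in any comparison, 24 in all; the 3 largest rises and falls at each time point were named with group means. Of the 35 members, 34 had a mean of at least 1 CPM. Alternatives changed the added constant, the filter, the scaling, the trend, the animals in the fit, the covariates and the fold limit; leaving out libraries with Rn18s-rs5 above 400000 CPM was chosen after seeing the data. The summed level of the oligodendrocyte list is not reported here.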

Additional observations from a re-analysis of the deposited data

Results flagged for a closer look

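Among 144 combinations of a named member and a group, 7 held an animal that stood apart from the rest of its group by Dixon's criterion, which chance alone meets in about 1 group in 20. At 4 dpi these were Sema4b in A9-4 (17.1 CPM, the others 12.6 to 13.3), Sema5b in A10-1 (6.6 CPM, the others 9.6 to 10), L1cam in A9-2 (62.8 CPM, the others 55.1 to 56.4) and Plxna4os1 in A9-2 (0.7 CPM, the others 0.6). At 42 dpi Nrp1 in A3-4 measured 29 CPM and the others 22.1 to 23.5. In sham, Plxna4os1 in A12-2 measured 1.2 CPM and the others 0.5 to 0.7, and Plxna4os2 in A11-1 measured 1.2 CPM and the others 1.9 to 2.1. The 2 flags of Plxna4os1 span 1 to 5 rounding steps.

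The change against sham differed between 14 and 28 dpi for 18 members when the difference itself was tested with limma, beside 43% of all genes; after rescaling each animal to the same sum, 17 of the 18 were no longer called, Plxna4os2 being the exception. It was larger at 28 dpi by log2 0.28 for Sema4d, 0.55 for Sema5a, 0.42 for Sema5b, 0.50 for Sema6a, 0.27 for Sema6c, 0.31 for Sema6d, 0.27 for L1cam, 0.38 for Nrp2, 0.63 for Plxna1, 0.53 for Plxna2, 0.24 for Plxna3, 0.51 for Plxna4, 0.41 for Plxnb1, 0.33 for Plxnb2, 0.27 for Plxnc1, 0.77 for Plxna4os1 and 1.20 for Plxna4os2. It was smaller for Sema3f, at -0.35. Between 28 and 42 dpi the change differed for Sema4b (-0.41) and Plxnb1 (-0.29). The sham animals cancel from these differences, which are therefore the same as the steps between time points.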

How the results depend on the processing

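The number of member SDEGs was 0 at 4, 7, 14 and 42 dpi under every setting tried. At 28 dpi it was 2, and it became 1 with an added constant of 1, with the length and GC correction and without the libraries with Rn18s-rs5 above 400000 CPM, 0 with ribosomal RNA as a covariate, 18 (all lower) with the same sum in every animal and 11 with no fold limit; with 1 animal left out it ranged from 1 to 2. Without a fold limit, 18 members in place of 3 passed between 14 and 28 dpi, where the same sum left 1 SDEG and leaving out 1 animal gave 2 to 5, and 2 in place of 0 passed between 28 and 42 dpi, where leaving out 1 animal gave 0. Under the same sum the 28 dpi log2 fold changes turned to -0.50 for Sema4d, -0.19 for Sema6a, -0.33 for Sema6c, -0.53 for L1cam, -0.48 for Nrp2, -0.32 for Plxna1, -0.39 for Plxna2, -0.38 for Plxna4 and -0.55 for Plxnb1, and Plxna3 between 14 and 28 dpi turned to -0.018; 66% of all genes were then lower at 28 dpi and 0.206% higher. Over all settings but those that leave out 1 animal, 293 values of single members kept direction and call, 68 lost the call and 10 turned, the 10 being those just named. The covariate ended every call at 28 dpi, and the cause was not tested. No paired analysis was possible because no pair of groups shares more than 1 A number of the titles (A3, at 28 and 42 dpi). With the A number as a random block (correlation -0.044), 12 members were higher and 1 lower at 28 dpi, beside 13.6% and 15.2% of all genes. The depth of each animal is unknown, so differences of low-valued members such as Plxna4os1 and Sema3b rest on values within a few rounding steps.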
